A study of Mus musculus with 15 samples.

Results

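The genes described here are 9 genes of the natural killer (NK) cell receptors and the interleukin 15 axis: the receptor genes Ncr1, Klrb1c, Klrk1, Klrd1 and Cd244a, the cytokine gene Il15, its receptor genes Il15ra and Il2rb, and the transcription factor gene Eomes. They were chosen by name, through the Ensembl gene identifier of each symbol, and all 9 were among the 17712 genes of the expression table. RNA came from 15 MC38 tumours. MC38 is a colon carcinoma line of mice, here grown subcutaneously on the right flank of C57BL/6 animals and injected when about 5 mm across. Each injection of 100 µL went into the tumour, which was taken 24 h later. Vehicle tumours (n = 3) received phosphate-buffered saline with DMSO and glucose at 5% each. BO-112 tumours (n = 4) received 50 µg of BO-112, in which poly I:C, a mimic of double-stranded RNA, is bound to a polymer carrier. DMXAA tumours (n = 4) received 100 µg of DMXAA, a small molecule that activates the mouse innate immune adaptor STING. The remaining tumours (n = 4) received 50 µg of BO-112 and 100 µg of DMXAA together. All mice carried the same tumour line and none is labelled with a genetic change, and the injection is what the labels give as differing between the groups. The labels call the tumours of a group biological replicates.

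NK cells are innate lymphocytes that kill stressed or virus-infected cells, and they read the balance between activating and inhibitory receptors. Interleukin 15 is the cytokine that keeps them alive and drives their growth: it is held on the surface of myeloid and stromal cells by the receptor alpha chain and shown to neighbouring lymphocytes, which respond through the beta chain and the common gamma chain. Type I interferon, which RNA and DNA sensors induce, is a known inducer of interleukin 15 and its alpha chain in myeloid cells. Most of these receptors are not restricted to NK cells, since activated CD8 T cells carry several of them.

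Levels are in CPM, the reads of a gene scaled to the size of its library multiplied by a scaling factor. That factor ran from 0.85 to 1.08 over the libraries, and the alternative called scaling by total reads leaves it out. Changes are log2 fold changes with their standard error (SE) from limma. Their p-values were adjusted over all 17712 genes by the Benjamini-Hochberg method, with a threshold of 0.05. The libraries held 12725316 to 19660511 reads. The members had 29 reads or more in every library, the lowest being Ncr1 in BO-112 4, so counting error is largest for Ncr1 and Klrb1c. The summed level of 11 skeletal muscle genes was 165 to 861 CPM in 4 libraries (vehicle 2, BO-112 1, DMXAA 1 and DMXAA 3) and at most 17.8 CPM in the others. DMXAA 2 and DMXAA 3 differed from the rest by transcript length: the shortest 10% of genes lay a median of 1.15 and 0.50 on the log2 scale above the mean of the remaining libraries, against 0.07 or less in each of the other libraries. Of the epithelial genes looked up to check the tumour line, Krt8, Krt18, Vil1 and Cdx2 were not in the expression table. Cdh1 lay between 4.91 and 82.6 CPM and Epcam between 0 and 2.67 CPM over the 15 libraries, with an Epcam median of 0.3 CPM.

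Between BO-112 and vehicle tumours, the ligand and its alpha chain rose and the receptor Cd244a fell, which made 3 of 9 members called, where 11.9% of all genes were called in that comparison. With both agents, Il15 and Il15ra rose again, 2 of 9 members where 2.67% of all genes were called. With DMXAA alone, limma called 0 of 9 members, where 1.25% of all genes were called. At an unadjusted p under 0.05 there were 4 members in that last comparison (Klrk1, Klrd1, Cd244a and Il15), where 18.1% of all genes stood under it. The ranges of a treated group and vehicle did not overlap for 3 members with BO-112, 4 with DMXAA and 2 with both agents, where 35.0%, 11.4% and 16.5% of all genes had no overlap. Log2 fold changes were above 0 for all 9 members with DMXAA (with Il15ra at -0.04 when libraries were scaled by total reads), for 5 with BO-112 and for 4 with both agents. Their medians were 0.49, 0.20 and -0.09, against 0.01, -0.04 and -0.01 over all genes. With DMXAA, genes within 20% of a member's length had medians of 0.39 (Klrd1), 0.28 (Ncr1), 0.16 (Il15), 0.13 (Il15ra) and 0.09 (Klrb1c). For Klrk1, Cd244a, Eomes and Il2rb these medians were 0.01, -0.01, -0.01 and -0.05. The 3 comparisons share the vehicle tumours. In bulk tumour RNA, fewer cells of a type and less RNA per cell cannot be told apart.

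**Figure D1:**
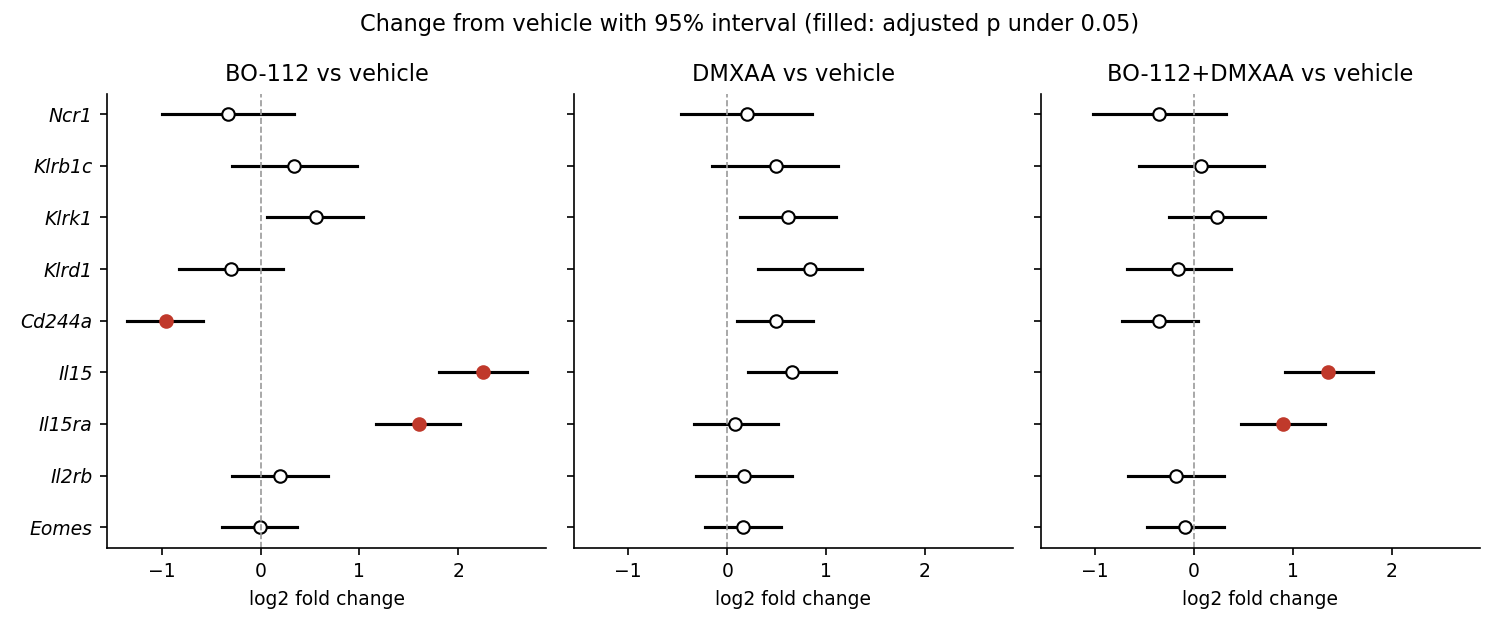
Log2 fold change from vehicle (horizontal axis) of the 9 genes with BO-112, DMXAA or both agents; points are limma estimates, lines their 95% intervals, and filled points have an adjusted p under 0.05. Il15 and Il15ra lie to the right with BO-112 (2.25 and 1.60) and with both agents (1.36 and 0.90), and Cd244a lies to the left with BO-112 (-0.96).

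Il15 (ENSMUSG00000031712.11), the cytokine of the axis, was lowest in vehicle tumours, at 8.33, 11.3 and 5.87 CPM. The BO-112 tumours stood at 32.6, 49.5, 38.6 and 37.3 CPM, the DMXAA tumours at 11.6, 15.6, 11.6 and 13.4 CPM, and the tumours with both agents at 24.8, 23.9, 18.2 and 18.5 CPM. No 2 of the 4 groups overlapped, in the order vehicle, DMXAA, both agents, BO-112. Il15 rose with BO-112 by 2.25 ± 0.21 (SE) on the log2 scale, which is 4.75-fold with a 95% interval of 3.49 to 6.47 (limma adjusted p = 6.25e-06). With both agents it rose by 1.36 ± 0.21, or 2.57-fold (limma adjusted p = 0.00163). With DMXAA the estimate was 0.66 ± 0.21, and it did not pass the test (limma adjusted p = 0.156).

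Il15ra (ENSMUSG00000023206.17), the alpha chain that binds and presents interleukin 15, stood at 44.6, 53.8 and 31.4 CPM in vehicle tumours and at 123, 152, 118 and 121 CPM in BO-112 tumours. The DMXAA tumours lay at 54.5, 33.5, 40.3 and 54.7 CPM and those with both agents at 86.8, 89.5, 75.4 and 66.1 CPM. Vehicle and DMXAA tumours overlapped, and all tumours with both agents lay between them and the BO-112 tumours. The rise with BO-112 was 1.60 ± 0.20 on the log2 scale, or 3.03-fold (limma adjusted p = 8.94e-05). With both agents it was 0.90 ± 0.20, or 1.87-fold (limma adjusted p = 0.0222), and this call was lost without vehicle 1, vehicle 3, or replicate 1 or 2 of both agents (adjusted p = 0.0684, 0.154, 0.0821 and 0.0784). With DMXAA the estimate was 0.08, with a 95% interval of -0.34 to 0.51.

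The sequences around the annotated starts of Il15ra are shown because its level changed most among the members that have a RefSeq promoter window. Windows of 250 bases before to 50 bases after a start (RefSeq, GRCm38.p6) were given for 6 of the 9 members, namely Ncr1, Klrb1c, Klrk1, Cd244a, Il15ra and Eomes, 8 windows in all. They were searched on both strands for 4 motifs: an interferon-stimulated response element core (GAAA and GAAA with NN between them), a gamma-activated site (TTCNNNGAA), an NF-kB site (GGG and TTCC with NNN between them) and a T-box site (AGGTGTGA). Of all 32851 windows, 3.44%, 8.30%, 5.56% and 1.28% held them. A shorter interferon regulatory factor element (GAAANNGAA, in 8.56% of windows) was added after the sequences had been seen, and it overlaps the first motif, every match of which it holds. Capitals mark its matches in the Il15ra windows, at chr2:11705043-11705342 and chr2:11705462-11705761 on the plus strand, both written 5′ to 3′.
Il15ra, first window: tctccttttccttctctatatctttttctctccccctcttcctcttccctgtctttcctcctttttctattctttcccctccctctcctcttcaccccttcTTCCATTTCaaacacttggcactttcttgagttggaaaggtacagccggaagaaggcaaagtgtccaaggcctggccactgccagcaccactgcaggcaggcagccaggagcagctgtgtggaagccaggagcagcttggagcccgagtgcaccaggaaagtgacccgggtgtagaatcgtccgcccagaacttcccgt
Il15ra, second window: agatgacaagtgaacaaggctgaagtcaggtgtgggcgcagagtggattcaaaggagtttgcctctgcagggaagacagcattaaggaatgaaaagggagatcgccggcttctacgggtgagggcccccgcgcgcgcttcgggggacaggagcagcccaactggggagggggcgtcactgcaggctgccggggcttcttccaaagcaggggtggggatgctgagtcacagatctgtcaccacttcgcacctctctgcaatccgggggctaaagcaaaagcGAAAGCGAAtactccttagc
Neither Il15ra window holds any of the 4 motifs searched first, and no member window holds a gamma-activated, NF-kB or T-box site. The matches shown are to the element added later. The first window holds TTCCATTTC, a match on the minus strand that begins at position -149 from the start, and the second holds GAAAGCGAA at position 31. Among the other members, the Klrk1 window holds TTCACTTTC at -48 and the Eomes window GAAAATGAAA at -154, the single match to the longer core. A match is a description of these letters, and binding was not measured.

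Because the table is not scaled by length, the ligand and its alpha chain were compared per kilobase of exon. The ratio of Il15 to Il15ra lay between 0.203 and 0.228 in vehicle tumours. It was 0.289 to 0.357 in the BO-112 group, 0.232 to 0.508 in the DMXAA group and 0.263 to 0.311 in the group given both. Each treated tumour thus lay above all 3 vehicle tumours, and the highest ratio was that of DMXAA 2, where Il15ra was at its lowest in the DMXAA group. The alpha chain remained the more abundant of the pair per length in all 15 tumours.

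Il2rb (ENSMUSG00000068227.10), the signalling beta chain shared with interleukin 2, did not pass the test in any comparison. It stood at 61.1, 63.0 and 35.9 CPM with vehicle, 56.9, 66.4, 67.4 and 48.6 CPM with BO-112, 80.9, 53.4, 46.8 and 56.3 CPM with DMXAA, and 38.7, 52.6, 37.4 and 56.6 CPM with both agents. All 4 groups overlapped, and vehicle 3 was lower than any other tumour. Against vehicle its fold change had 95% intervals of 0.820 to 1.61 for BO-112, 0.803 to 1.57 for DMXAA and 0.629 to 1.23 for the combination. The common gamma chain Il2rg, which pairs with Il2rb, rose with BO-112 by 1.14 ± 0.18 (limma adjusted p = 0.000641) and stood at 0.70 ± 0.18 with both agents (limma adjusted p = 0.0525).

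Eomes (ENSMUSG00000032446.15), a T-box factor needed for NK cell maturation and used by CD8 T cells, encodes a low-abundance factor that varied little. It lay at 5.98, 5.27 and 5.81 CPM with vehicle, 5.87, 5.77, 7.18 and 4.15 CPM with BO-112, 6.76, 6.57, 6.10 and 6.03 CPM with DMXAA, and 5.40, 6.14, 5.34 and 4.61 CPM with both agents. The DMXAA tumours all lay above the vehicle tumours, by a narrow margin, and the other groups overlapped vehicle. The estimates against vehicle were -0.01 ± 0.18, 0.16 ± 0.18 and -0.09 ± 0.18 with BO-112, DMXAA and both agents, with limma adjusted p of 0.983, 0.607 and 0.971. Its relative Tbx21, the other T-box factor of NK cells, stood at -0.04 ± 0.29, 0.45 ± 0.29 and -0.30 ± 0.29 in the same comparisons, and it was not called in them.

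**Figure D2:**
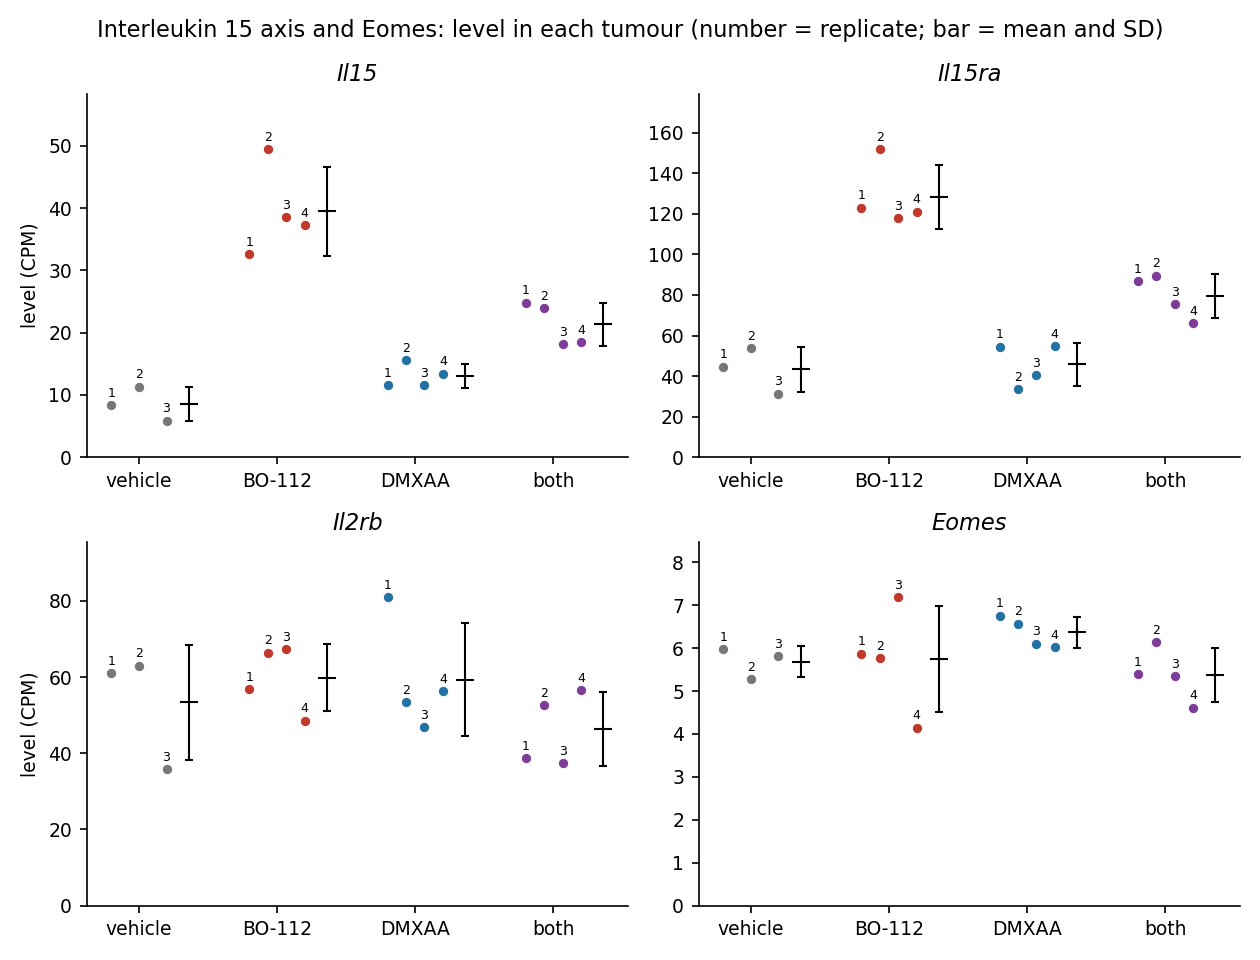
Level in CPM (vertical axis, from 0) of Il15, Il15ra, Il2rb and Eomes in each of the 15 tumours by group; points are tumours numbered by replicate, bars the mean and SD of the group. The BO-112 tumours sit at 32.6 to 49.5 CPM for Il15 and at 118 to 152 CPM for Il15ra, above every other tumour, while the groups overlap for Il2rb.

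Among the receptors, Cd244a was the one called against vehicle. Cd244a (ENSMUSG00000004709.15) encodes 2B4, a receptor of the SLAM family that binds Cd48 and is found on NK cells, on some CD8 T cells and on myeloid cells. It stood at 14, 13.6 and 10.3 CPM in vehicle tumours, 6.69, 5.83, 6.32 and 6.83 CPM with BO-112, 22.2, 15.3, 15.3 and 18.3 CPM with DMXAA, and 8.03, 8.60, 11.6 and 11.7 CPM with both agents. The BO-112 tumours lay below all others and the DMXAA tumours above all others, while tumours with both agents overlapped vehicle. Cd244a fell with BO-112 by 0.96 ± 0.18 on the log2 scale, a level 1.95-fold lower (limma adjusted p = 0.00242). The estimate was 0.49 ± 0.18 with DMXAA (limma adjusted p = 0.216) and -0.35 ± 0.18 with both agents (limma adjusted p = 0.525). In the same comparison 4 of 14 macrophage and monocyte markers fell by limma, Cd163 (-4.71 ± 0.62), Mrc1 (-2.71 ± 0.47), Ccr2 (-1.49 ± 0.33) and Csf1r (-0.55 ± 0.16), the last pair named after their values were seen, and 2 rose, where 11.9% of all genes were called. The summed level of the 14 was 5600 to 6510 CPM with vehicle and 5210 to 7500 CPM with BO-112, with no marker at 0 in all libraries of a group. The part of macrophages and monocytes in the Cd244a value was not tested. The Cd244a promoter window, shown because it was the receptor called with BO-112, lies at chr1:171558943-171559242 on the plus strand (RefSeq, GRCm38.p6), is written 5′ to 3′, and holds none of the 5 motifs searched.
Cd244a: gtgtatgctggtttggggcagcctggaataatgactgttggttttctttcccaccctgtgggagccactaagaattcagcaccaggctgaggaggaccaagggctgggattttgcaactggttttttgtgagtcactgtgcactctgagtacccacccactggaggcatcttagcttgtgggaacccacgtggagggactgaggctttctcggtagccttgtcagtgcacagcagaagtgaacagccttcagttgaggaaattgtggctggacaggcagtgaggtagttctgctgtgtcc

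Klrd1 (ENSMUSG00000030165.17) encodes CD94, the partner chain of the NKG2 receptors. It stood at 8.04, 10.3 and 7.0 CPM with vehicle, 5.87, 6.13, 9.71 and 6.06 CPM with BO-112, 19.0, 19.6, 11.9 and 11.1 CPM with DMXAA, and 7.18, 7.61, 6.14 and 9.30 CPM with both agents. Every DMXAA tumour lay above every other tumour, and the remaining groups overlapped. The estimate for DMXAA against vehicle was 0.84 ± 0.25, or 1.78-fold with a 95% interval of 1.24 to 2.57, and did not pass the test (limma adjusted p = 0.121). Klrd1 has 966 exon bases in the GENCODE M21 annotation, among the shortest 10% of genes. The 757 genes within 20% of its length had a median log2 fold change of 0.39 in that comparison, where DMXAA 2 and DMXAA 3 are the libraries with high short transcripts. Its partner Klrc1, the inhibitory chain NKG2A, stood at 0.91 ± 0.31 there (limma adjusted p = 0.181).

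Klrk1 (ENSMUSG00000030149.16) encodes NKG2D, the activating receptor for stress-induced ligands. It stood at 15, 20.5 and 10 CPM with vehicle, 21.1, 21.1, 24.3 and 19.4 CPM with BO-112, 31.1, 23.3, 19.6 and 17.2 CPM with DMXAA, and 14.5, 20, 15.7 and 18.8 CPM with both agents. Each treated group overlapped vehicle, and vehicle 2 lay among the treated tumours. The estimates were 0.56 ± 0.23 with BO-112, 0.61 ± 0.23 with DMXAA and 0.23 ± 0.23 with both agents, with limma adjusted p of 0.131, 0.216 and 0.864. Without vehicle 2 the BO-112 value was 0.80 with a limma adjusted p of 0.0429, the 1 call among 27 alternatives. Klrk1 was not called when all 4 libraries with high muscle genes, vehicle 2 among them, were left out.

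Ncr1 (ENSMUSG00000062524.5), which encodes the activating receptor NKp46 and is the most NK-restricted gene of the set, did not pass the test anywhere. It stood at 5.48, 3.57 and 3.50 CPM with vehicle, 3.67, 3.73, 4.39 and 1.85 CPM with BO-112, 7.19, 4.30, 3.19 and 4.91 CPM with DMXAA, and 3.09, 3.93, 2.63 and 3.31 CPM with both agents. All groups overlapped, and DMXAA 1 was the highest and BO-112 4 the lowest. Against vehicle the fold change had 95% intervals of 0.501 to 1.26 for BO-112, 0.721 to 1.82 for DMXAA and 0.495 to 1.25 for the combination. A change of Ncr1 as large as that of Il15 with BO-112 lies outside that first interval, whereas smaller changes within these intervals were not detectable with these tumours.

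Klrb1c (ENSMUSG00000030325.17) encodes NK1.1, the NK cell surface marker of C57BL/6 mice, and was the lowest member per length. It stood at 2.85, 1.88 and 2.97 CPM with vehicle, 3.18, 3.85, 3.72 and 2.30 CPM with BO-112, 4.67, 5.21, 2.98 and 2.15 CPM with DMXAA, and 2.62, 3.07, 2.49 and 2.41 CPM with both agents. The groups overlapped throughout. The estimates were 0.34 ± 0.30 with BO-112, 0.49 ± 0.30 with DMXAA and 0.07 ± 0.30 with both agents, with limma adjusted p of 0.520, 0.363 and 0.991. Klrb1c has close relatives in the same gene cluster, and how reads matching several genes were assigned is not given in the sources used here, so its level is uncertain.

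**Figure D3:**
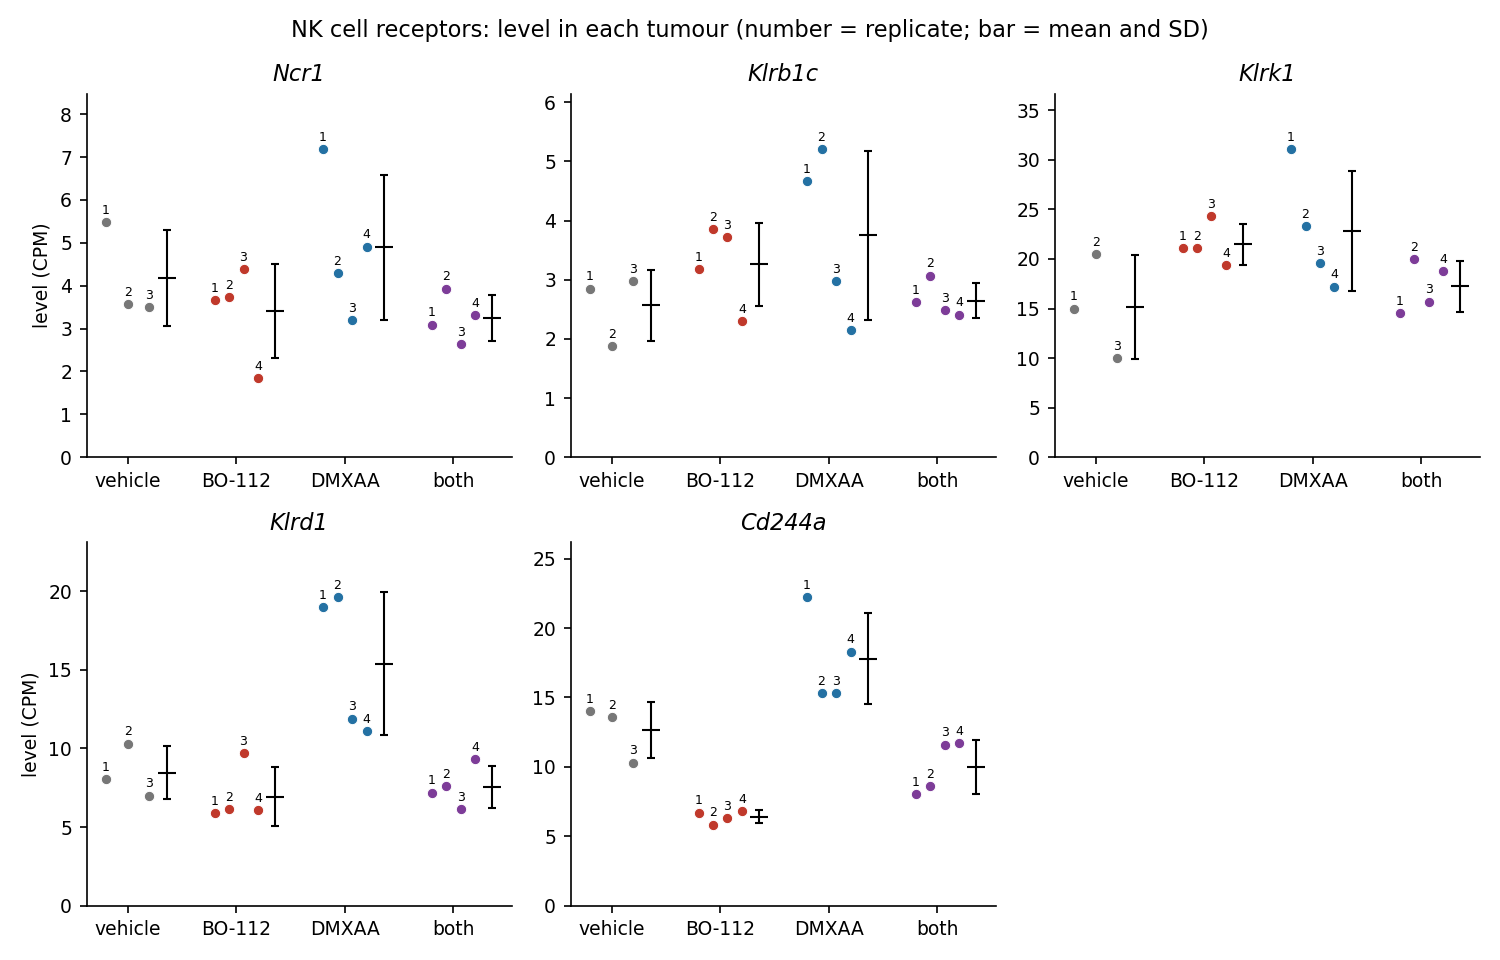
Level in CPM (vertical axis, from 0) of the 5 receptor genes in each of the 15 tumours by group; points are tumours numbered by replicate, bars the mean and SD of the group. For Klrd1 the DMXAA tumours (11.1 to 19.6 CPM) lie above all others, and for Cd244a the BO-112 tumours (5.83 to 6.83 CPM) lie below all others.

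The agents were then compared with each other. Between BO-112 and DMXAA tumours 4 of 9 members were called, where 21.4% of all genes were called. Il15 was 3.01-fold higher with BO-112 than with DMXAA (log2 1.59 ± 0.19, limma adjusted p = 0.000139) and Il15ra 2.85-fold higher (1.51 ± 0.18, adjusted p = 0.000139). Cd244a was 2.73-fold lower (-1.45 ± 0.17, adjusted p = 0.000109) and Klrd1 2.19-fold lower (-1.13 ± 0.23, adjusted p = 0.00433). In all 4 genes the ranges of these groups did not overlap, which held for 22.7% of all genes. The 5 receptors all had estimates below 0, though Klrb1c (-0.14 ± 0.28) and Klrk1 (-0.06 ± 0.21) changed sign under some alternatives, and Ncr1 stood at -0.53 ± 0.29 (adjusted p = 0.183).

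Genes within 20% of a receptor's length had median log2 fold changes in that comparison of -0.50 for Klrd1, -0.31 for Ncr1 and -0.09 for Klrb1c. For Klrk1 and Cd244a these medians were 0.01 and 0.04. With the length trend removed from each library the Klrd1 value was -0.74 (limma adjusted p = 0.0419), without DMXAA 2 and DMXAA 3 it was -1.09 (adjusted p = 0.0135), and without the 4 libraries with high muscle genes it was -1.05 (adjusted p = 0.0672). The Klrd1 level was 19.6 and 11.9 CPM in DMXAA 2 and DMXAA 3, where short transcripts were high, and 19.0 and 11.1 CPM in DMXAA 1 and DMXAA 4, where they were not. Cd244a was called in all 27 alternatives of this comparison, with values from -1.65 to -1.34.

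Adding BO-112 to DMXAA changed 1 of 9 members, where 0.886% of all genes were called. Cd244a was lower with both agents than with DMXAA alone (-0.83 ± 0.17, limma adjusted p = 0.0345), and the ranges did not overlap. That call was lost in 13 of 27 alternatives, among them the fit without the libraries with high muscle genes (-0.76, adjusted p = 0.209). Klrd1 (-0.99 ± 0.23, adjusted p = 0.054), Il15ra (0.82 ± 0.18, adjusted p = 0.0517) and Il15 (0.70 ± 0.19, adjusted p = 0.0873) did not pass, also without overlap of their ranges. Ranges without overlap were thus seen for 4 members, and for 7.96% of all genes.

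Adding DMXAA to BO-112 gave limma calls for 0 of 9 members and for 0 genes in all (0.0%). At an unadjusted p under 0.05 there were 3 members, where 9.54% of all genes stood under it. Il15 was lower with both agents than with BO-112 alone (-0.88 ± 0.19, adjusted p = 0.139), as was Il15ra (-0.70 ± 0.18, adjusted p = 0.209), whereas Cd244a was higher (0.62 ± 0.17, adjusted p = 0.219). For these 3 genes no tumour of either group lay within the range of the other, which held for 10.2% of all genes. Fitted to those groups alone, limma called 2 members, and with weights for library quality it called 3.

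The interaction asks whether the combined injection gave the sum, on the log2 scale, of the separate changes. It subtracts the DMXAA effect seen without BO-112 from the DMXAA effect seen on top of BO-112. It was called for 1 of 9 members, where 1.35% of all genes were called: Il15 had an interaction of -1.54 ± 0.28 (limma adjusted p = 0.0176), so its level with both agents was 2.92-fold below that sum. Without vehicle 1 its adjusted p was 0.055, the highest of the 26 alternatives. Klrk1 (-0.93 ± 0.31, adjusted p = 0.173) and Il15ra (-0.78 ± 0.27, adjusted p = 0.195) did not pass. Of the 9 estimates 8 lay below 0 (Ncr1 at 0.00 when scaled by total reads), with a median of -0.70 against 0.02 over all genes, and Cd244a was the exception at 0.13 ± 0.25. Genes of similar length had interaction medians from -0.27 (Klrd1) to 0.05 (Il2rb), with -0.23 for Ncr1. Over any difference among the 4 groups, limma's moderated F test called Il15, Il15ra, Cd244a and Klrd1, 4 of 9 members where 12.7% of all genes were called.

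**Figure D4:**
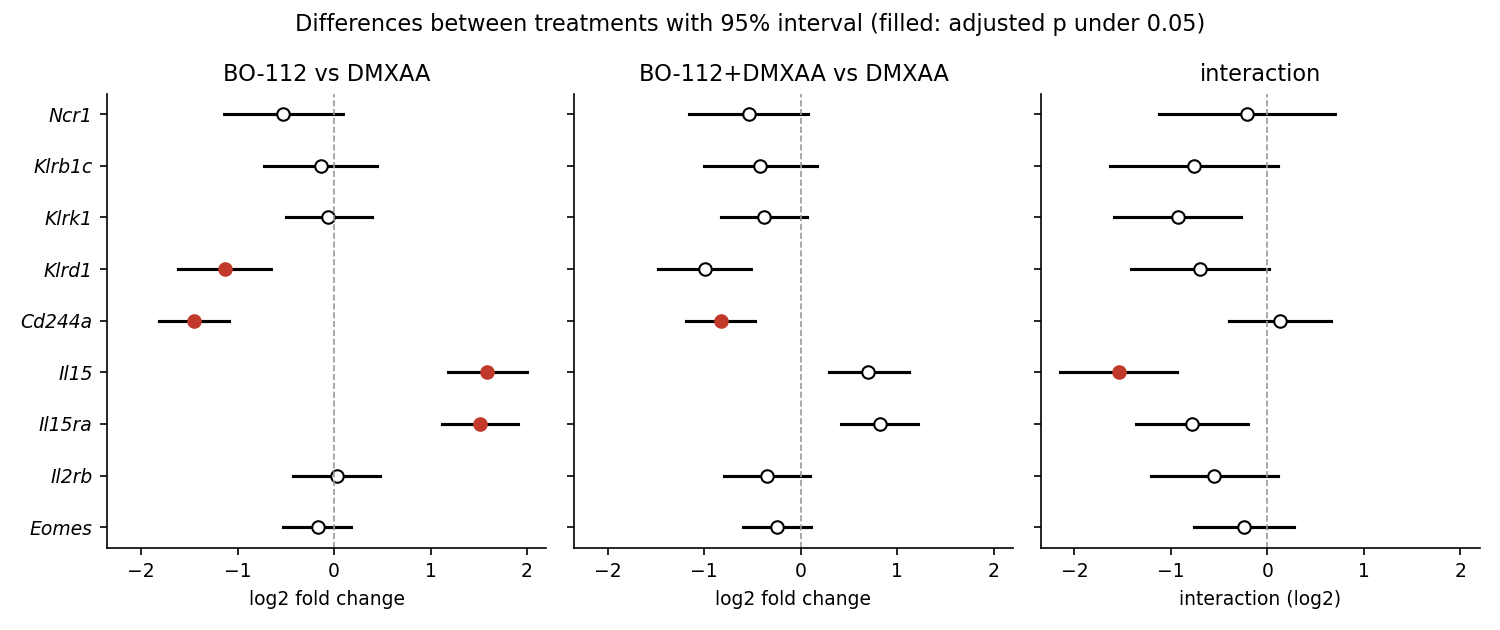
Log2 fold change between treatments, or interaction (horizontal axis), of the 9 genes for BO-112 against DMXAA, both agents against DMXAA, and the interaction; points are limma estimates, lines their 95% intervals, and filled points have an adjusted p under 0.05. Klrd1 and Cd244a lie to the left and Il15 and Il15ra to the right in the first panel, and Il15 (-1.54) is the filled point of the interaction.

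Per kilobase of exon, the order of the members differed between groups. In vehicle tumours Il15ra was highest at 18.9 ± 4.91 CPM per kilobase (SD, n = 3), followed by Il2rb at 12.4 ± 3.54 and Klrd1 at 8.74 ± 1.74. Klrk1 (4.42 ± 1.52), Il15 (4.04 ± 1.28), Cd244a (3.36 ± 0.534) and Ncr1 (2.72 ± 0.73) followed within their spread, and Eomes (1.54 ± 0.101) and Klrb1c (0.974 ± 0.227) were lowest. With BO-112 (SD, n = 4) Il15ra stood at 56.1 ± 6.95, and Il15 was next at 18.8 ± 3.41, a value that overlaps within its spread with Il2rb at 14 ± 2.06. Cd244a (1.71 ± 0.119) then lay within the spread of Ncr1 (2.21 ± 0.708) and Eomes (1.56 ± 0.337). With DMXAA (SD, n = 4) Il15ra (20 ± 4.62), Klrd1 (16.0 ± 4.69) and Il2rb (13.8 ± 3.48) could not be separated beyond their spread. With both agents Il15ra (34.7 ± 4.71) stood above Il2rb (10.8 ± 2.27) and Il15 (10.2 ± 1.66), which could not be separated from each other.

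The genes whose log2 CPM was most like that of a member over the 15 libraries were listed among 13921 genes with a mean of at least 1 CPM, by Pearson r and with no test. The libraries fall into treatment groups, so these values carry the group differences. For Il15 they were Parp10 (0.988), Parp12 (0.986), Sod2 (0.985), Tor3a (0.985) and Ttc39c (0.984), and for Il15ra they were Ifih1 (0.984), Mov10 (0.982), Ifit2, Gbp5 and AW011738 (each 0.980). Ncr1 was most like Il18r1 (0.859), a chain of the interleukin 18 receptor, then Lax1 (0.842), Tacr1 (0.831), Klrb1f (0.823) and Ripor2 (0.818). For Cd244a, added after its values were seen, they were Arhgap18 (0.946), the leukotriene B4 receptor Ltb4r1 (0.933), Laptm5 (0.919), Pip4k2a (0.916) and Vsir (0.913).

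After the group means were taken away, so that only differences among tumours of a group remained, Il15ra was most like Ms4a4d (0.972), Ifit3b (0.969), Cmpk2 (0.948), Oas3 (0.944) and Ifit3 (0.942), of which Ifit3b, Cmpk2, Oas3 and Ifit3 are interferon-stimulated. Il15 was most like Parp10 (0.916), Parp9 (0.902), Nxpe3 (0.885), Oas1b (0.876) and Cxcl10 (0.876). Ncr1 was most like Arntl2 (0.864), Phkb (0.857), Taf9b (0.849), Il18r1 (0.841) and Tacr1 (0.836). Among the members themselves, the deviations of Klrk1 were most like those of Il2rb (0.85) and Klrd1 (0.76), and those of Ncr1 most like those of Il2rb and Eomes (0.73 each). The value for Il15 and Il15ra was 0.54. All these values rest on n = 15 libraries in which all genes share the depth and cell makeup of a library, and DMXAA 1 was the highest tumour for Ncr1, Klrk1, Cd244a and Il2rb.

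Other genes listed for NK cells give the setting, though which cells of the tumour expressed them was not measured. Their counts are to be read beside the share of all genes called: 11.9% with BO-112, 1.25% with DMXAA and 2.67% with both agents. A list of 36 further genes, named for NK cell receptors and adaptors, holds genes that are not restricted to NK cells. Among them 6 rose and 4 fell with BO-112, so 10 of 36 were called, with a median log2 fold change of 0.09 against -0.04 over all genes. The SLAM family receptor Slamf7 (3.03 ± 0.35), Klra17 (3.48 ± 0.52), the adaptor Sh2d1b2 (3.28 ± 0.49) and Slamf6 (1.48 ± 0.27) rose, with limma adjusted p of 3.91e-05, 0.000438, 0.000449 and 0.00169. The 4 that fell, named after their values were seen, were Cd160 (-1.61), the adaptor Sh2d1b1 (-1.05), the Fc receptor Fcgr3 (-0.77) and Ncam1 (-0.53). How reads that match several Klra genes were assigned is not given in the sources used here, so the value of Klra17 is uncertain. With DMXAA the adaptor Fcer1g alone rose (0.69 ± 0.15, limma adjusted p = 0.0454), and 30 of the 36 estimates lay above 0, with a median of 0.51 against 0.01 over all genes. Short transcripts were high in DMXAA 2 and DMXAA 3, and the part of transcript length in these values was not tested. With both agents Klra17, Slamf7, Fcer1g and Sh2d1b2 rose and none of the 36 fell. The signalling adaptor Tyrobp stood at 0.13 ± 0.13 with BO-112 and 0.45 ± 0.13 with DMXAA, and Hcst, the partner of NKG2D, at -0.73 ± 0.49 and 0.60 ± 0.49, none of them called.

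Of 16 ligands of NK cell receptors, 7 rose with BO-112, where 11.9% of all genes were called, and none fell. The MHC class I genes H2-T23, H2-D1 and H2-K1 were among the 7. The NKG2D ligand genes Ulbp1, Raet1d, Raet1e and H60b, named after their values were seen, were not. The median of the 16 was 0.78 against -0.04 over all genes. H2-T23, whose product Qa-1 is the ligand of the CD94 and NKG2A pair, rose by 1.34 ± 0.22 (limma adjusted p = 0.00103), and Pvr, which DNAM-1 binds, rose by 1.24 ± 0.22 (adjusted p = 0.00138). H2-T23 was also the 1 ligand of the list to rise with DMXAA (1.03 ± 0.22, adjusted p = 0.0375) and with both agents (0.95 ± 0.22, adjusted p = 0.0323). Of 20 genes of common gamma chain signalling, 5 rose with BO-112, among them Il7r (2.68 ± 0.44), Pim1 (1.20 ± 0.19) and Mcl1 (0.68 ± 0.10), and 1 fell, Il9r (-1.88 ± 0.55), named after its value was seen, with a median of 0.22 over the 20. None of the 20 was called with DMXAA, and 4 rose with both agents (Il7r, Pim1, Socs3 and Mcl1). Of 16 transcription factors of NK and innate lymphoid cells, Id2 (1.15 ± 0.20), Nfil3 (1.24 ± 0.21), Prdm1 (1.11 ± 0.27) and Irf2 (0.41 ± 0.13) rose with BO-112 and Zfp683 fell by 3.62 ± 0.72. That made 5 of 16 called, with a median of 0.08. None of the 16 was called with DMXAA or with both agents, where 1.25% and 2.67% of all genes were called.

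The cytokines that act with interleukin 15 on NK cells rose in part. The list of 17 holds such cytokines, receptors and Il18bp, the gene of the interleukin 18 binding protein, which is neither. With BO-112 7 rose, among them the interleukin 12 subunit Il12b (3.48 ± 0.36), Il27 (2.94 ± 0.43), Ebi3 (1.07 ± 0.18) and Il18 (0.87 ± 0.25). The chemokine receptor Cx3cr1 fell by 2.27 ± 0.40, which made 8 of 17 called where 11.9% of all genes were. With DMXAA none of the 17 was called, and with both agents Il12b, Il27 and Il18bp rose. Of 17 cytotoxic effectors 9 rose with BO-112, 4 with DMXAA and 4 with both agents, and none fell. Perforin (Prf1) rose by 1.75 ± 0.26 and granzyme B (Gzmb) by 2.41 ± 0.41 with BO-112, while granzyme A (Gzma) rose by 1.25 ± 0.30 with BO-112 and by 1.81 ± 0.30 with DMXAA, and Nkg7 by 1.13 ± 0.22 with DMXAA. Among 30 genes induced by type I interferon, the number that rose was 30 for BO-112, 9 for DMXAA and 26 for both agents. Interferon gamma (Ifng), which activated NK cells release, was not called, at 0.16 ± 0.90 with BO-112 and 1.96 ± 0.90 with DMXAA.

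T cell markers bear on the receptors because activated CD8 T cells also carry Klrk1, Klrd1, Cd244a, Il2rb and Eomes. None of 23 T cell markers was called by limma against vehicle with BO-112, DMXAA or both agents, though 22 of 23 estimates lay above 0 with DMXAA (median 0.43). The summed level of the 23 ranged from 98.7 to 217 CPM in vehicle tumours and from 124 to 180 CPM in BO-112 tumours. It ranged from 159 to 299 CPM in DMXAA tumours and from 96.1 to 185 CPM in those given both, and no marker was at 0 in all libraries of a group. Between BO-112 and DMXAA, 6 of the 23 were lower with BO-112, among them Trbc2 (-1.27 ± 0.30), Lat (-1.27 ± 0.32), Trac (-0.84 ± 0.25) and Cd3d (-1.25 ± 0.39), in the comparison where Klrd1 and Cd244a were also lower. That is 6 of 23 where 21.4% of all genes were called, a share near the background, with a median of -0.66 over the 23 against -0.05 over all genes. The all-gene medians are not matched to these markers by transcript length, and short transcripts were high in DMXAA 2 and DMXAA 3. The part of transcript length in the T cell values of both DMXAA comparisons was not tested. Cd3e and Cd8a stood at -0.63 ± 0.28 and -0.90 ± 0.50 there and were not called.

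The summed level of the 5 receptors was 33.8 to 49.8 CPM in vehicle tumours, 36.4 to 48.4 CPM in BO-112 tumours, 53.0 to 84.1 CPM in DMXAA tumours and 35.4 to 45.5 CPM in tumours given both. Each DMXAA tumour lay above every tumour of the other groups, with 53.0 against 49.8 CPM at the closest, and those groups overlapped. The sums were not tested. They are mostly Klrk1, Cd244a and Klrd1, with DMXAA means of 22.8, 17.8 and 15.4 CPM, against 4.9 CPM for Ncr1 and 3.75 CPM for Klrb1c. Of the 5 receptors, Klrd1 and Cd244a had DMXAA ranges apart from vehicle, and Ncr1, Klrb1c and Klrk1 overlapped it. None of the 5 was called with DMXAA, and Klrd1 is among the short genes that were high in DMXAA 2 and DMXAA 3. DMXAA 1 and DMXAA 2, the tumours with the highest receptor sums (84.1 and 67.8 CPM), also had the highest T cell sums (299 and 264 CPM). DMXAA 3 and DMXAA 4 had receptor sums of 53.0 and 53.7 CPM at T cell sums of 179 and 159 CPM. Vehicle 1, 2 and 3 had receptor sums of 45.3, 49.8 and 33.8 CPM at T cell sums of 182, 217 and 98.7 CPM. The part of T cells in the receptor values and sums was not tested.

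**Figure D5:**
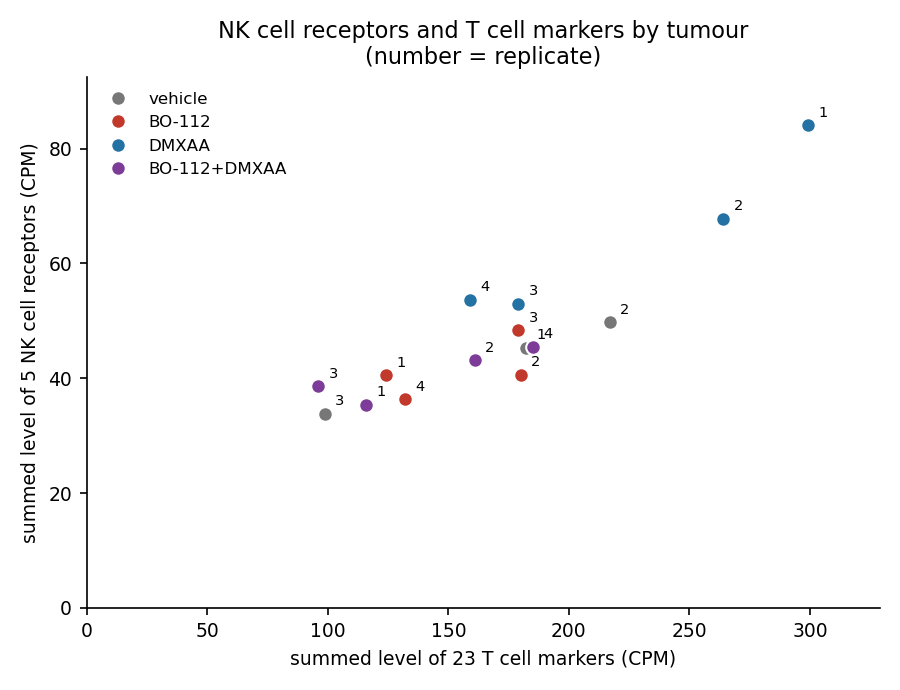
Summed level of the 5 NK cell receptors (vertical axis, CPM) against that of 23 T cell markers (horizontal axis, CPM) in each tumour; points are tumours numbered by replicate and coloured by group. The DMXAA tumours reach 53.0 to 84.1 CPM of receptors, above all others, and DMXAA 1 and DMXAA 2 are also highest for T cell markers.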

How the data were processed

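Messenger RNA of 15 tumours was sequenced from stranded libraries with paired reads of 150 bp, per the labels' protocols. STAR, edgeR, limma and the mm39 build are named in the submitters' processing notes, with no role given. The deposited values are log2 CPM with 0.5 reads added before the log. Whole reads were recovered from it for 100% of values (largest distance from a whole number 5.4e-09, tolerance 1e-06), and CPM were computed from them. A second deposited table of counts carries no sample names, and its 15 columns of values were not used.

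Symbols and exon lengths came from GENCODE M21 by Ensembl identifier (17636 genes matched, 76 without a symbol). That annotation is on another build than mm39, so no coordinates are given from the files. Promoter windows are RefSeq's, on GRCm38.p6.

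R 4.3.3 and limma 3.58.1 fitted a mean for each of 4 groups to the 15 libraries' log2 CPM, with trend and robust moderation. There were 6 pairwise comparisons, the interaction, and a moderated F test. P-values set a difference between groups against the spread between tumours, which was pooled over the fitted groups and moderated across genes. Scripts were tested on simulated data. Alternatives changed the scaling, filter, pseudocount, moderation, weights, libraries and samples fitted, and added a replicate block. The fits without DMXAA 2 and DMXAA 3 and with the length trend removed were added after the data were seen.

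The 9 members and the 14 further gene lists were chosen with earlier results of these data known. Named genes are the 9 members, at most 4 called genes per list and comparison by adjusted p (all where there were 5 or fewer), a fixed panel, and the 5 genes most like Ncr1, Il15 and Il15ra.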

Additional observations from a re-analysis of the deposited data

Results flagged for a closer look

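For 2 genes a single BO-112 tumour stood far from the others of its group. Klrd1 was at 3.28 log2 CPM in BO-112 3, the highest of its group, and Il15ra was at 7.25 log2 CPM in BO-112 2. In all 27 sets of 4 tumours were looked at in this way, and chance flags about 1 in 20.

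The interaction differed from 0 by limma for Il15 (-1.54), so the change on adding DMXAA differed between tumours with and without BO-112. The same held, among the genes of the fixed panel, for Ifnb1 (-3.33), Isg15 (-2.24), Prf1 (-1.76), Gzma (-2.03), Nkg7 (-1.36) and H2-T23 (-1.42), each lower with both agents than the sum of the separate changes.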

How the results depend on the processing

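Of the 63 member values in 7 comparisons, 11 were called. None of the 11 changed sign under an alternative, and 7 stayed called under every alternative run: Il15 and Il15ra and Cd244a for BO-112 against vehicle and against DMXAA, and Il15 for both agents against vehicle. Among the rest, 8 uncalled values were called under some alternative. The number of members called for both agents against vehicle was 1 with scaling by total reads (1 to 2 with a library left out). For both agents against BO-112 it was 3 with quality weights, 2 with the compared groups alone and 2 without DMXAA 2 and DMXAA 3. For both agents against DMXAA it was 0 with scaling by total reads, without trend and robust moderation, with the compared groups alone, without the libraries with high muscle genes and without DMXAA 2 and DMXAA 3, 2 with 2 reads added, 3 with the filter of 1 CPM in 4 libraries or the length trend removed, and 0 to 3 with a library left out. Same-numbered tumours did not deviate together (mean correlation 0.0152 over 21 pairs, -0.00509 over 63 other pairs). With a replicate block 2 members were called there. For the interaction it was 2 with quality weights and without DMXAA 2 and DMXAA 3, and 0 to 1 with a library left out.

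The following uncalled values changed sign under an alternative. Scaling by total reads gave 0.07 (Ncr1) and 0.01 (Eomes) for both agents against BO-112, 0.00 for the Ncr1 interaction, -0.04 for Il15ra with DMXAA against vehicle and 0.00 for Il2rb between BO-112 and DMXAA. That scaling moved the median of all genes to -0.197 (BO-112 against vehicle), -0.112 (DMXAA against vehicle), 0.102 (both against BO-112) and 0.234 (interaction). Without the libraries with high muscle genes, Ncr1 was 0.04 for both agents against BO-112, Klrb1c -0.14 for both against vehicle and Klrk1 0.10 for BO-112 against DMXAA. In the last comparison quality weights gave 0.14 (Klrb1c), 0.01 (Klrk1) and -0.05 (Il2rb), leaving out DMXAA 2 and DMXAA 3 gave 0.02 (Klrb1c) and -0.19 (Il2rb), and removing the length trend gave -0.06 (Il2rb). The Cd244a interaction was -0.07 without DMXAA 2 and DMXAA 3. Eomes with BO-112 was 0.00 by geometric mean scaling, 0.03 with quality weights and 0.07 with the replicate block. With a library left out, values that changed sign ranged as follows. Against vehicle, Ncr1 ran from -0.01 to 0.41, Il15ra from -0.13 to 0.26 and Il2rb from -0.10 to 0.31 with DMXAA, Il2rb from -0.07 to 0.34 and Eomes from -0.13 to 0.14 with BO-112, and Klrb1c from -0.14 to 0.19 and Klrk1 from -0.03 to 0.48 with both agents. Between BO-112 and DMXAA, Klrb1c ran from -0.38 to 0.04, Klrk1 from -0.18 to 0.10 and Il2rb from -0.07 to 0.19. Between both agents and BO-112, Ncr1 ran from -0.28 to 0.13 and Eomes from -0.22 to 0.04.

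Over all genes, the number called ranged widely over the alternatives: 1090 to 5006 for BO-112 against vehicle (2116 as reported), 4 to 376 for DMXAA (221), 246 to 1403 for both agents (473), 0 to 362 for both against BO-112 (0), 0 to 1765 for both against DMXAA (157), 791 to 5898 for BO-112 against DMXAA (3783), 36 to 710 for the interaction (239) and 652 to 3899 for the F test (2247). With total reads, the genes called with BO-112 against vehicle were 932 higher and 1807 lower, against 1353 and 763. The cause of these shifts was not tested. Low-count receptors limit what can be seen: the intervals of Ncr1 and Klrb1c are the widest of the members.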

Other observations

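Myeloid cells present interleukin 15, and their markers changed unevenly with BO-112. Of 14 macrophage and monocyte markers, 2 rose and 4 fell by limma. The inflammatory monocyte marker Ly6c2 rose by 3.54 ± 0.32 (adjusted p = 4.47e-06) and the Fc receptor Fcgr1 by 1.57 ± 0.22 (adjusted p = 0.000226). The adjusted p of the 4 that fell were 0.000151 (Cd163, a scavenger receptor), 0.00132 (Mrc1, the mannose receptor), 0.00778 (Ccr2) and 0.0398 (Csf1r). Of all genes, 11.9% were called. Of 13 dendritic cell markers, the migration receptor Ccr7 rose by 2.11 ± 0.32 (adjusted p = 0.000531), while the lectins Mgl2 (-3.87 ± 0.84) and Clec10a (-3.30 ± 0.77) fell. With DMXAA, Ly6c2 and Fcgr1 were the called macrophage and monocyte markers, both higher, and none of the dendritic cell markers was called.

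Of 7 markers of tissue-resident innate lymphoid cells, Tnfsf10 rose and Gpr183 and Itgae fell with BO-112, and none was called with DMXAA or both agents. Of 9 neutrophil markers, 4 rose with BO-112, 3 rose and 1 fell with DMXAA, and 5 rose with both agents. For all lists of this paragraph, the shares of all genes called were 11.9% with BO-112, 1.25% with DMXAA and 2.67% with both agents. Of 5 B cell markers, Pax5 rose with BO-112 and with both agents. None of 11 skeletal muscle markers was called against vehicle, but their levels were not even between groups. All 11 estimates lay below 0 with BO-112 (median -0.98) and with both agents (median -2.88). With DMXAA all 11 lay above 0 (median 1.33). The libraries with high muscle genes were vehicle 2, BO-112 1, DMXAA 1 and DMXAA 3, and none came from a tumour given both agents.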
